A study of Mus musculus with 4 samples.

Results

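The chemokine system of the adult mouse ureter is described here through 49 genes, 33 for chemokines and 16 for their receptors. They were chosen by gene symbol alone (Cxcl, Ccl, Cx3cl, Xcl, Cxcr, Ccr, Cx3cr or Xcr followed by a number and at most 1 letter), from 77 probe sets that carry a single symbol, out of 18193 named genes and 45037 probe sets tested. A further 4 probe sets match several symbols, among them those of Ccl19, Ccl21a and Ccl27b, and were not used. The 4 samples are ureters of adult male mice (strain FVB/N, Theiler stage 28) with the transgene SMGA/EGFP, which places green fluorescence in tissue that uses the smooth muscle gamma actin gene. FVB/N females had been mated with transgenic males, the ureter was cut out between kidney and bladder by its fluorescence, and no treatment is named. All 4 samples form 1 group that carries the reporter, so no contrast between conditions was possible. The samples, called replicates 1 to 4 without an order, are said to be unpooled but not to be separate animals, so the p-values measure only the spread between these samples, which may be technical.

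Chemokines are small secreted proteins, a few of them anchored in the membrane, that guide migrating cells along gradients. They are classed by the spacing of their first cysteines into the CC, CXC, CX3C and XC families and signal through G protein-coupled receptors carried mainly by leukocytes. Some are made constantly by epithelium and stroma and hold resident cells in place, while others are induced by NF-kappaB or interferon during inflammation. Atypical receptors bind chemokines without G protein signalling and remove them from the tissue.

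A level is log2(intensity + 16) of the gene's probe set with the highest mean, given as mean ± SD (n = 4). As background, 83 probe sets for odorant, vomeronasal and taste receptors were taken, and their 95th percentile on an array, its threshold, came to 7.231, 6.98, 7.569 and 7.361 in replicates 1 to 4. To be called above background, a gene needed a probe set whose mean distance from the thresholds passed a one-sided moderated limma test, at a p under 0.05 after Benjamini-Hochberg adjustment over all probe sets. The number of arrays limits the precision, levels of different probe sets were not set against each other, and in whole tissue fewer cells of a type and less RNA per cell cannot be told apart.

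The labelled tissue showed its defining markers, with 7 of 7 smooth muscle and 5 of 7 urothelial genes above background (57.9% of all named genes were). Upk3a and Krt20 of the superficial urothelium were over the threshold in replicate 3 only and did not pass. The samples also differed in tissue content. The summed intensity of 7 skeletal muscle genes reached 150749 in replicate 3, where the other samples had 627 to 746, with all 7 over the threshold there. The sum of 7 fibroblast genes came to only 20886 there, while other samples had 84909 to 121196, and 7 endothelial genes summed to 4075 against 16305 to 30287. The sum of 7 liver genes reached 52235 in replicate 1 and 13234 in replicate 3, with 838 to 1077 elsewhere. That of 7 seminal vesicle and prostate genes ran 7379, 70120, 76117 and 689 over the 4 samples. The genes behind it differed, as all 7 were over the threshold in replicate 2 but only 3 in replicate 3. There Pbsn had 15.41 and Spink1 14.97, while Svs2, Svs4, Svs6 and Pate4 lay under the threshold. The sum of 6 lacrimal and salivary genes ran from 63801 to 196722 except in replicate 1, which had 1115. RNA truncation, read from the ratio of 3' to 5' Gapdh signals, ranged from 18.77 in replicate 4 to 36.94 in replicate 2, and that of Actb was 8.23, 19.8, 5.27 and 4.43 in replicates 1 to 4. The part of these differences in the values below was not tested.

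Before the values, the promoters of 3 CXC ligands are shown. Cxcl9 and Cxcl10 are neighbours that were high in the same sample, and Cxcl15 lay far over background in every sample. Promoter sequences came from RefSeq (GRCm38.p6), where 36 of the 49 members matched by symbol. The stretch is the 250 bases before the start of transcription, at chr5:92328080-92328329 (minus strand) for Cxcl9, chr5:92348890-92349139 (minus strand) for Cxcl10 and chr5:90794284-90794533 (plus strand) for Cxcl15. Capitals mark matches, on either strand, to the interferon-stimulated response element (GAAA, any 2 bases, GAAA), TTCNNNGAA (the gamma-activated site bound by STAT factors), an NF-kappaB site (GGG, any 3 bases, TTCC) or TATAAA (the TATA box), and no match overlapped another in these 3 stretches.
Cxcl9: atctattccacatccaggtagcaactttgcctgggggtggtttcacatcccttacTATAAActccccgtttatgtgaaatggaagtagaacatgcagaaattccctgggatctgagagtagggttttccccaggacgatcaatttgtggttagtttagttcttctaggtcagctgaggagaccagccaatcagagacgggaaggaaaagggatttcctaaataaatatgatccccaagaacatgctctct
Cxcl10: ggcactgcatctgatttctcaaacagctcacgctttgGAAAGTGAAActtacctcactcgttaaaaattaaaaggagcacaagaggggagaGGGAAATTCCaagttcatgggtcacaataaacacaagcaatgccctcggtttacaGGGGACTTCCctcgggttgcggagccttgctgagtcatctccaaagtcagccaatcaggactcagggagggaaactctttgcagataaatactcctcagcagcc
Cxcl15: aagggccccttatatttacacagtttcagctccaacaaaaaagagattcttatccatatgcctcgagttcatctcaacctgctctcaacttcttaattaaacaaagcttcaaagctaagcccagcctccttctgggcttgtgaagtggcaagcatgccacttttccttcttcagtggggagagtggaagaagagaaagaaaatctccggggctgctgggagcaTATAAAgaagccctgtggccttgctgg
The Cxcl10 stretch holds GAAAGTGAAA, which begins 213 bases before the start, and the NF-kappaB matches GGGAAATTCC and GGGGACTTCC, which begin 159 and 104 bases before it. The Cxcl9 stretch holds TATAAA alone, beginning 195 bases before the start, and the Cxcl15 stretch holds TATAAA beginning 27 bases before it. Over the full windows of 300 bases, which run 50 bases past the start, the interferon element was in 3.44%, TTCNNNGAA in 8.3%, the NF-kappaB motif in 5.56% and TATAAA in 13.6% of all 32851 promoters of the table. Among the 36 members with a promoter, the interferon element was found in 2 (Cxcl10 and Cxcl14), TTCNNNGAA in 3, the NF-kappaB motif in 9, among them Cxcl1, Cxcl2, Cxcl3 and Cxcl10, and TATAAA in 11. A match describes the letters in this window only.

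Of the 49 members 14 were above background (28.6%), against 57.9% of all named genes. Ligands made up 13 of these 14, out of 33 measured, and Ccr2 was the 1 receptor of 16 that passed. The median distance of all members from the threshold was -0.5 log2 units, against 1.89 for all named genes. Of the members 19 (38.8%) lay under the threshold in all 4 samples, against 23.4% of named genes. With a stricter background fewer passed: 11 members passed at the 99th percentile of the receptor probe sets (54.2% of all genes) and 7 at their median plus 3 median absolute deviations (40.1%). The same 7 kept their call under every alternative tried, namely Cxcl12, Cxcl15, Cxcl17, Ccl6, Ccl9, Ccl28 and Cx3cl1.

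**Figure D1:**
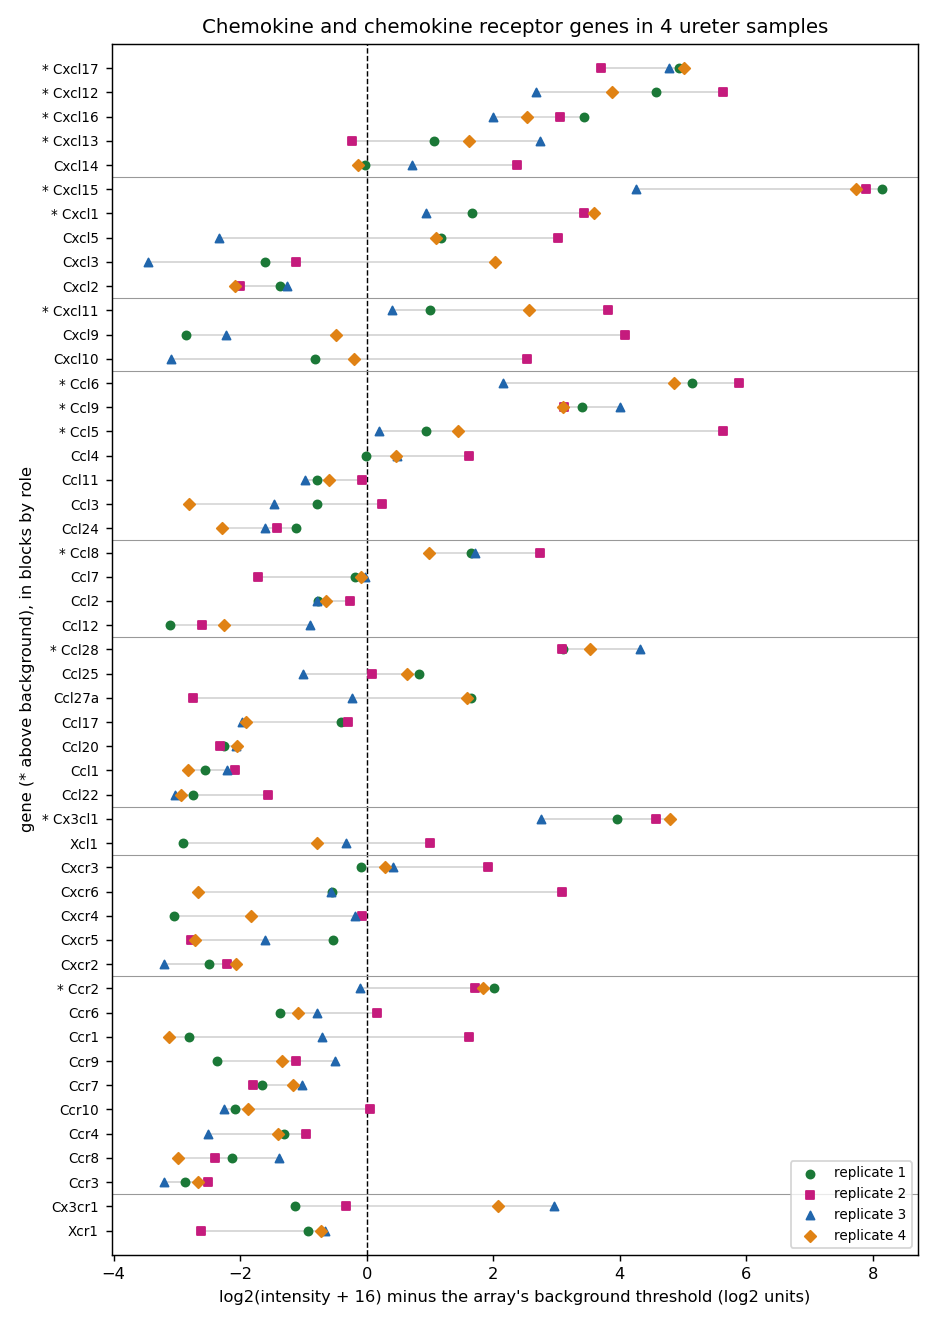
Distance of each of the 49 genes from its array's background threshold (x axis, log2 units; 0 is the dashed line), 1 symbol per replicate, with an asterisk on the 14 genes above background and lines between blocks of genes of 1 role. Most receptors, in the lowest 3 blocks, lie left of the line, and the Cxcl15 values lie between 4.25 and 8.14.

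The homeostatic and stromal ligands were above background in 4 of 5 cases, against 57.9% of all named genes. So few genes do not set a group apart from that share, here or in the groups below. Cxcl12, the stromal ligand of Cxcr4, had levels of 11.80, 12.61, 10.25 and 11.23 in replicates 1 to 4 (11.47 ± 1.00, adjusted p = 2.77e-05). It was highest in replicate 2 and lowest in replicate 3, and over the threshold in every sample. A second Cxcl12 probe set also passed (9.14 ± 0.82), while the third did not (6.35 ± 0.65). Cxcl17, a chemokine of mucosal epithelium, had 12.17, 10.69, 12.34 and 12.38 (11.89 ± 0.81, adjusted p = 7.83e-07), so that replicate 2 stood below 3 close values. Cxcl16, a membrane-anchored ligand of Cxcr6, had 10.66, 10.03, 9.57 and 9.90 (10.04 ± 0.46, adjusted p = 3.38e-05), with little difference between samples and a like result from its other probe set (10.01 ± 0.58).

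Cxcl13, which draws B cells to follicles through Cxcr5, had 8.29, 6.75, 10.30 and 8.98 (8.58 ± 1.48, adjusted p = 0.0299). It was highest in replicate 3 and under the threshold in replicate 2, the opposite order to Cxcl12. Cxcl13 was no longer called when replicate 1 was left out (adjusted p = 0.0574), without replicate 3 (0.113), without replicate 4 (0.0953) and at the 99th percentile (0.126). None of 6 genes of lymph node stroma and follicles passed, among them Madcam1, Cr2 and Fcer2a, and in replicate 3 all 6 lay under the threshold. Cxcl14, an epithelial and stromal chemokine, was not above background at 7.21, 9.35, 8.28 and 7.22 (8.01 ± 1.02, adjusted p = 0.169), with replicates 2 and 3 over the threshold. Its second probe set, not called either, differed in order, with 7.04, 7.03, 8.23 and 8.49, highest in replicate 4.

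Among the neutrophil-attracting CXC ligands 2 of 5 were above background (57.9% of all named genes were). Cxcl15, a CXC chemokine known from lung epithelium, had 15.37, 14.87, 11.82 and 15.09 (14.29 ± 1.66, adjusted p = 7.53e-06). Replicate 3 was the low sample, differing by -3.29 log2 units from the mean of the other 3, and was still 4.25 over its threshold. The second Cxcl15 probe set gave the same picture, with 14.63, 14.65, 10.72 and 14.93. Cxcl1, a ligand of Cxcr2, had 8.89, 10.42, 8.50 and 10.96 (9.69 ± 1.18, adjusted p = 0.00147), higher in replicates 2 and 4 than in replicates 1 and 3. The probe sets of Cxcl1 differed. The 2 that passed can match several transcripts, and the third, with 7.48, 9.67, 4.49 and 10.15, did not (adjusted p = 0.512).

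Cxcl5 was over the threshold in 3 samples and not called, at 8.41, 10.0, 5.23 and 8.45 (8.02 ± 2.0, adjusted p = 0.383). Replicate 3 was 2.34 under its threshold, and without that lowest sample Cxcl5 was above background (adjusted p = 0.00512). Without replicate 1, 2 or 4 it was not (0.559, 0.998 and 0.554). Dropping the lowest value favours a call, so that result does not place Cxcl5 above background. Cxcl3 lay over the threshold in replicate 4 alone, with 5.63, 5.87, 4.12 and 9.39. Cxcl2 was under it in every sample (5.61 ± 0.59). All measured neutrophil markers failed the test (0 of 7, among them S100a8, S100a9 and Mpo). So did Cxcr2, the receptor of Cxcl1, Cxcl2, Cxcl3 and Cxcl5, at 4.79 ± 0.38. The genes Cxcl5, Cxcl3, Cxcl15, Cxcl1 and Cxcl2 lie in 1 run in the RefSeq gene table, and 2 of the 5 were above background.

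The interferon-inducible ligands of Cxcr3, which attract activated T cells and NK cells, were highest in replicate 2 in 3 of 3 cases. Cxcl9 had 4.38, 11.07, 5.34 and 6.88 in replicates 1 to 4. Only replicate 2 was over its threshold, by 4.09 log2 units, and the mean of 6.92 ± 2.95 was not above background (adjusted p = 1). Cxcl10 had 6.42, 9.52, 4.48 and 7.16 (6.90 ± 2.08, adjusted p = 1), again with replicate 2 alone over the threshold. Cxcl11 was above background, with 8.23, 10.80, 7.97 and 9.92 (9.23 ± 1.36, adjusted p = 0.00954), and replicates 2 and 4 were its higher samples. The second probe sets showed less. That of Cxcl9 was over the threshold in replicate 2 alone, at 7.10, with 4.65 to 6.62 elsewhere, and that of Cxcl11 lay under the threshold in every sample and was highest in replicate 4 at 7.33.

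Ccl5, made by T cells and NK cells, had 8.16, 12.61, 7.75 and 8.81 (9.33 ± 2.23, adjusted p = 0.0416). Replicate 2 exceeded the mean of the remaining samples by 4.37 log2 units, and those samples lay 0.19 to 1.45 over their thresholds. The call of Ccl5 was lost without replicate 2 (adjusted p = 0.0797), without replicate 4 (0.0682), after quantile normalization (0.0551) and at the 99th percentile (0.138). Cxcr3, the receptor of Cxcl9, Cxcl10 and Cxcl11, had 7.14, 8.90, 7.99 and 7.65 (7.92 ± 0.74, adjusted p = 0.165), also highest in replicate 2. Cxcr6, found on T cell and NK cell subsets, had 6.68, 10.07, 7.0 and 4.69 (7.11 ± 2.22, adjusted p = 1). Its second probe set had 7.98, 8.24, 6.91 and 4.49, over the threshold in replicates 1 and 2.

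Some genes of other lists were also highest in replicate 2, and some were not. Of 14 measured interferon-induced genes 13 were above background (57.9% of all named genes were). In replicate 2 the median difference of the 14 genes from the remaining samples' mean was 1.52 log2 units. Gbp2, an interferon-induced GTPase, had 12.75, 14.16, 10.91 and 12.13, and Igtp, another, had 10.90, 13.10, 10.64 and 11.62. Irf1 was highest in replicate 4 (12.01, against 11.88 in replicate 2). Stat2, which did not pass, was lowest in replicate 2 and under the threshold there (6.63, against 7.47 to 8.28). None of 7 T cell genes and none of 5 NK cell genes passed the test of the mean. The summed intensity of the T cell genes was 2380 in replicate 2 against 400 to 779 elsewhere, with 5 of 7 over the threshold there against 0, 1 and 3. Cd3g had 10.41 in replicate 2 against 7.18 to 7.93, while Cd3d and Cd4 lay under the threshold there. The NK cell sum was 2819 against 750 to 967, while 2, 3, 1 and 4 of the 5 genes were over the threshold in replicates 1 to 4. Gzma (10.68 against 6.80 to 7.71), Nkg7 and Ncr1 were highest in replicate 2, whereas Prf1 was lowest there (6.61 against 8.30 to 8.72) and Eomes was highest in replicate 4 (8.08). Of 5 B and plasma cell genes 0 passed, and their sum was 3073 in replicate 2 against 278 to 884 elsewhere, through Jchain (11.17 against 6.21 to 8.57) and Pou2af1 (9.23 against 5.38 to 7.81), while Cd79a and Cd79b lay under the threshold in every sample. The 7 seminal vesicle and prostate genes were all over the threshold in replicates 1 and 2. The 3' to 5' ratio of Actb was 19.8 in replicate 2 against 4.43 to 8.23. The part of these cells and of RNA quality in the chemokine values was not tested.

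**Figure D2:**
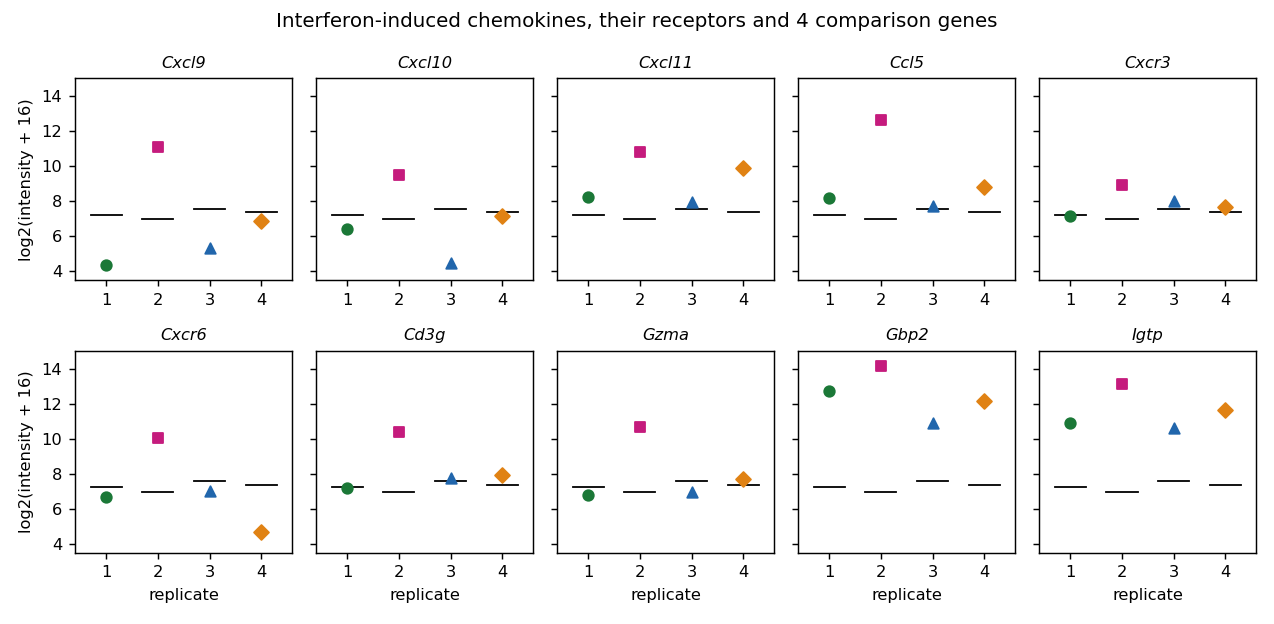
Levels, as log2(intensity + 16), of Cxcl9, Cxcl10, Cxcl11, Ccl5, Cxcr3 and Cxcr6 and of 4 comparison genes in replicates 1 to 4, with each array's threshold as a short black line. Replicate 2 is the highest sample in all 10 panels. For the probe sets shown of Cxcl9, Cxcl10 and Cxcr6 it is the only one over its threshold. The 4 comparison genes were picked from lists in which other genes differ, such as Prf1 and Stat2, both lowest in replicate 2.

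Ccl6 and Ccl9 are myeloid chemokines of rodents that act through Ccr1. Ccl6 had 12.38, 12.87, 9.72 and 12.21 (11.80 ± 1.41, adjusted p = 7.22e-05), lowest in replicate 3, and its second probe set was lowest there too (8.80 against 11.22 to 12.26). Ccl9 had 10.64, 10.11, 11.56 and 10.46 (10.69 ± 0.62, adjusted p = 2.8e-06) and was highest in replicate 3, the reverse of its neighbour Ccl6. The other Ccl9 probe set was not above background (6.33 ± 0.32). Ccl4, a T cell and macrophage product, was not called at 7.22, 8.60, 8.05 and 7.83 (adjusted p = 0.126), nor was its paralog Ccl3 at 6.44, 7.22, 6.11 and 4.55, over the threshold in replicate 2 only. The eosinophil attractants Ccl11 (6.68 ± 0.20) and Ccl24 (5.68 ± 0.46) were under the threshold in every sample.

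Of the CC ligands Ccl2, Ccl7, Ccl8 and Ccl12, 1 of 4 was above background (57.9% of all named genes were). Ccl8 had 8.88, 9.72, 9.28 and 8.35 (9.06 ± 0.58, adjusted p = 0.00117), over the threshold in all samples. Ccl2, Ccl7 and Ccl12 were under it in all samples, with means of 6.67, 6.78 and 5.07. Ccr2, the receptor through which monocytes follow Ccl2, had 9.25, 8.69, 7.46 and 9.20 (8.65 ± 0.83, adjusted p = 0.0129). Its value in replicate 3 was 0.11 under the threshold, and the other samples lay 1.71 to 2.02 over it. The call of Ccr2 was lost without replicate 1 (adjusted p = 0.0604), without replicate 2 (0.0553), without replicate 4 (0.0568) and at the 99th percentile (0.069), and 1 of its 4 probe sets passed. Of 10 macrophage markers 8 were above background (57.9% of all named genes were), among them Csf1r (12.00 ± 0.38), Cd68 (9.18 ± 0.40) and Adgre1 (8.94 ± 0.58). Their summed intensity ranged from 13110 in replicate 3 to 20915 in replicate 2.

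The ligands for T cell and mucosal homing passed in 1 of 7 cases (57.9% of all named genes passed). Ccl28, a mucosal epithelial chemokine that binds Ccr10, had 10.33, 10.07, 11.89 and 10.89 (10.79 ± 0.81, adjusted p = 4.64e-06), highest in replicate 3. Its other probe sets, at 7.70 ± 0.14 and 7.51 ± 1.02, were not called. Replicate 3 was also the sample with the highest sums of urothelial genes (140493 against 71720 to 110526) and of lacrimal and salivary genes. Of the urothelial genes, Upk1a, Upk1b, Upk2, Upk3a and Krt20 were highest in replicate 3. Krt5 (14.95) and Trp63 (15.39) were highest in replicate 2. The part of either tissue in the Ccl28 values was not tested. Ccr10 lay over the threshold in replicate 2 alone (7.04, against 5.15 to 5.49). Ccl27a, another Ccr10 ligand, had 8.88, 4.23, 7.34 and 8.95 from a probe set that can match near-identical copies, so its value is uncertain. Ccl25 (7.42 ± 0.73) was not called, and Ccl1, Ccl17, Ccl20 and Ccl22 lay under the threshold in all samples.

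Cx3cl1, a membrane-anchored chemokine of endothelium and epithelium, had 11.19, 11.56, 10.33 and 12.16 (11.31 ± 0.77, adjusted p = 8.65e-06). It was lowest in replicate 3, and 1 of its 4 probe sets passed. Its receptor Cx3cr1, carried by resident macrophages and monocytes, was highest in that sample, with 6.10, 6.67, 10.53 and 9.44 (8.18 ± 2.14, adjusted p = 0.236). Replicates 3 and 4 were over the threshold and replicates 1 and 2 under it. Without replicate 1, its lowest sample, Cx3cr1 was above background (adjusted p = 0.0468), which dropping a lowest value favours. Without replicate 2, 3 or 4 it was not (0.164, 0.753 and 0.562). The other Cx3cr1 probe set was under the threshold in every sample (4.42 ± 0.08). Xcl1, a T cell and NK cell ligand, had 4.33, 7.98, 7.25 and 6.58, over the threshold in replicate 2 only, and Xcr1, its receptor on dendritic cells, lay under it in all samples.

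Of the receptors 9 of 16 never rose over the threshold, namely Ccr3, Ccr4, Ccr7, Ccr8, Ccr9, Cxcr2, Cxcr4, Cxcr5 and Xcr1. Cxcr4, the signalling receptor of Cxcl12, had 4.18, 6.91, 7.38 and 5.54 (6.0 ± 1.45). Ccr1, the myeloid receptor, had 4.43, 8.59, 6.87 and 4.23, over the threshold in replicate 2 alone, while its second probe set was under it everywhere (4.48 ± 0.37). Ccr6, found on lymphocytes, passed the threshold only in replicate 2 as well (7.14, against 5.86 to 6.79).

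Of 12 genes of the same system that the symbol rule leaves out, 11 were above background (57.9% of all named genes were). They include the atypical receptors Ackr1 (9.48 ± 0.85), Ackr3 (14.14 ± 0.74) and Ackr4 (9.33 ± 0.43), which take up chemokines, and Ackr2 did not pass at 8.37 ± 1.46 (adjusted p = 0.11). Ackr3, which also binds Cxcl12, had 14.15, 14.58, 13.10 and 14.72, over the threshold in every sample. Ccrl2 (9.07 ± 0.72), a nonsignalling receptor, and Cmklr1 (8.54 ± 0.75), the chemerin receptor, passed, as did the chemerin gene Rarres2 (8.93 ± 0.94). So did the platelet chemokines Pf4 (10.95 ± 0.31) and Ppbp (10.03 ± 0.51), the cytokine Mif (12.05 ± 0.65), Cklf (12.58 ± 0.28) and Cmtm3 (9.62 ± 0.55). At the median plus 3 median absolute deviations 4 of the 12 passed.

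Downstream of the receptors 13 of 20 measured genes passed, a share near the 57.9% of all named genes. The broadly used Gnai2 (13.64 ± 0.16), Rac1 (14.77 ± 0.30) and Arrb2 (9.93 ± 0.13) passed and varied little. Gnb1 (14.31 ± 0.46), Gnai3, Gng2, Arrb1, Grk6, Pik3cg, Plcb3, Elmo1, Ptk2b and Rgs2 passed too. Dock2 (7.46 ± 1.91), Rac2 (8.03 ± 0.27), Vav1 (7.96 ± 0.59), Pik3r5, Plcb2, Prex1 and Rgs1 did not. Rac2 missed narrowly (adjusted p = 0.0526, limma) and was over the threshold in every sample. Of 18 inducers and NF-kappaB genes 10 passed, again near the share of all named genes. These were Tnfrsf1a (12.51 ± 0.42), Il1r1 (11.23 ± 0.82), Nfkbia (15.58 ± 0.31), Tnfaip3 (11.13 ± 0.69), Rela, Relb, Icam1, Vcam1, Sele and Selp. The cytokines Tnf (4.95 ± 0.32), Il1b (7.26 ± 0.57), Il6 (4.77 ± 0.63) and Ifng (6.83 ± 1.70) did not pass. Il1a, Il17a, Lta and Nfkb2 (7.66 ± 1.42) did not pass either. Ifng had 4.30, 7.72, 7.90 and 7.37, so it was not highest in replicate 2.

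In a count that involves no test, 17, 26, 17 and 21 of the 49 members lay over the threshold in replicates 1 to 4 (34.7%, 53.1%, 34.7% and 42.9%). For all named genes the shares were 67%, 68.6%, 67.4% and 65.9%. Of the 9 members over the threshold in exactly 1 sample, 8 were over it in replicate 2, namely Cxcl9, Cxcl10, Ccl3, Xcl1, Cxcr6, Ccr1, Ccr6 and Ccr10, against 30.3% of the 1281 named genes over it in exactly 1 sample. Replicate 2 also had the lowest threshold. The counts 26 and 8 were 22 and 6 at the 99th percentile. At the median plus 3 median absolute deviations the 4 counts were 8, 14, 11 and 15, replicate 4 then being the highest, and 4 of 8 single-sample members were over it in replicate 2.

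**Figure D3:**
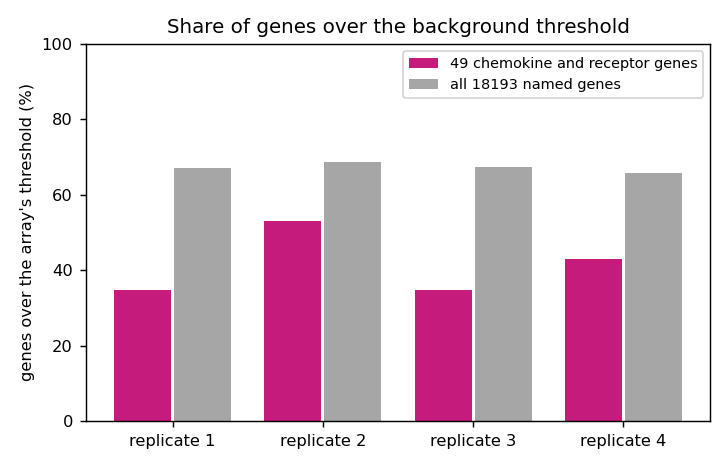
Share of genes over the array's background threshold in each replicate, in percent, for the 49 chemokine and receptor genes and for all 18193 named genes. The members' share is 53.1% in replicate 2 against 34.7% to 42.9% elsewhere, and the share of all genes stays between 65.9% and 68.6%.

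Of the 14 members above background 3, 5, 3 and 3 were highest in replicates 1 to 4, where the shares over all genes above background were 23%, 25.3%, 27.6% and 24.1%. Lowest in replicates 1 to 4 were 0, 4, 9 and 1 members, and the shares over all such genes were 19.4%, 23.6%, 34.3% and 22.7%. The 9 lowest in replicate 3 were Cxcl1, Cxcl11, Cxcl12, Cxcl15, Cxcl16, Ccl5, Ccl6, Ccr2 and Cx3cl1. The median difference of the 14 members in replicate 3 from the mean of the other samples was -1.45 log2 units, against -0.05 for all genes above background. Ccl8, Ccl9, Ccl28, Cxcl13 and Cxcl17 differed the other way, from 0.30 for Ccl8 to 2.30 for Cxcl13. With the mean over all probe sets of a gene the count lowest in replicate 3 was 7 and that highest in replicate 2 was 3. In the same sample the fibroblast, endothelial and macrophage medians were -2.15, -2.00 and -0.61 log2 units relative to the others, and whether the members' values depend on this was not tested.

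**Figure D4:**
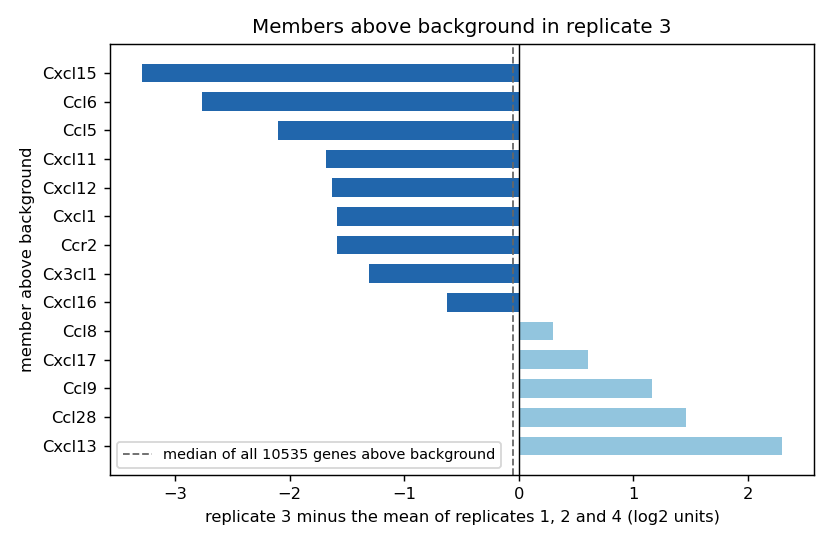
Level in replicate 3 minus the mean of replicates 1, 2 and 4 (x axis, log2 units) for the 14 members above background, with the median of all 10535 genes above background as a dashed line. The bars run from -3.29 for Cxcl15 to 2.30 for Cxcl13, and 9 of 14 point to the left.

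The spread between samples was tested against limma's prior variance for genes of like level. By this F test 0 of the 14 members passed (smallest Benjamini-Hochberg adjusted p = 0.462, for Cxcl15, with limma), as did 0 of all genes (0%), and 0 passed without the filter on dim probe sets. At an unadjusted p under 0.05 there were 4 members, Cxcl15, Ccl5, Ccl6 and Cxcl13 (28.6%, against 5.41% of all genes above background). Only genes called above background entered this comparison. Ccl5 lost its call without replicate 2 (adjusted p = 0.0797, limma) and Cxcl13 without replicate 3 (0.113), the highest sample of each. Their entry thus depended on the samples in which they were high, while Cxcl15 and Ccl6 kept their calls. How far this filter raises either share was not tested. The differences between samples given above are therefore descriptions. Even Prol1, a lacrimal and salivary gene with 8.01 in replicate 1 against 15.56 to 16.89, did not pass. A failure in this test thus cannot show that the samples are alike. Values of 7 of the 14 spanned over 2 log2 units between samples (9.83% of genes above background did), and 2 of the 14, Cxcl15 and Cxcl17, had 1 sample apart by Dixon's gap criterion (5.88%). The median SD over the 14 members was 0.91 log2 units, against 0.41 for all genes above background.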

How the data were processed

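The values are intensities on a linear scale, as the authors deposited them for each probe set (Affymetrix MOE430, biotin label, 2 rounds of amplification, per the labels' protocols). The submitters' processing notes name GCOS, with no version. Arrays had been scaled alike: trimmed by 2% at each end, their mean was 1500.0 throughout, so no further scaling was applied before taking log2. The 64 control probe sets of 45101 were left out. Symbols came from the platform annotation. Of 45037 tested probe sets 34945 had 1 symbol and 932 several, and the RefSeq gene table changed 0 symbols.

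Tests used limma 3.58.1 in R 4.3.3 over all probe sets with eBayes (trend and robust). The spread test, an F test with 3 and 5.24 degrees of freedom, used probe sets above background. Both were also run on simulated data, with outcomes not given here. Members, gene lists and settings were chosen with earlier results of these data known. Every member above background was named with values, as was each other member over the threshold in some sample and spanning over 2 log2 units, while further genes were named after their values were seen. The settings varied were the pseudocount (1 and 64), the scaling (quantile), the background, the choice of probe set and the samples, each left out in turn. No deposited arrays were duplicates (2 to 9 identical values per pair).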

Additional observations from a re-analysis of the deposited data

Results flagged for a closer look

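The 25 members checked were the 14 above background and 11 others, over the threshold in some sample and chosen for a span over 2 log2 units. Of the 25, 2 had a sample whose gap to the nearest other exceeded Dixon's 95% critical value for 4 samples. Chance passes this value in about 5% of groups, and 5.88% of all genes above background passed it. Both flagged members are among the 14, the only part of the 25 to which the 5.88% applies. Cxcl15 was low in replicate 3 at 11.82, against 14.87 to 15.37 in the others. Cxcl17 was low in replicate 2 at 10.69, against 12.17 to 12.38.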

How the results depend on the processing

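The number of members above background was 11 to 14 when each replicate was left out, 13 after quantile normalization and 7 when the threshold was their median plus 3 median absolute deviations. With that background the neighbouring chemokine system genes, receptor signalling and interferon-induced lists had 4, 8 and 8 genes above background, the members over the threshold numbered 8, 14 and 11 in replicates 1 to 3, and those over it in replicate 2 only numbered 4. There the mean distance from the threshold turned negative for Ccl8 (-0.24), Ccr2 (-0.65), Cxcl11 (-0.07) and Cxcl13 (-0.72), since the threshold itself is higher. Over all 49 members 7, 20, 15 and 7 were highest in replicates 1 to 4 (14.3%, 40.8%, 30.6% and 14.3%, against 21.5%, 22.4%, 33.6% and 22.5% of all named genes) and 14, 11, 15 and 9 lowest (28.6%, 22.4%, 30.6% and 18.4%, against 23.2%, 26.5%, 26.9% and 23.3%). With the mean over all probe sets 3 members above background were highest in replicate 2, 6 highest in replicate 4 and 2 lowest in replicate 1, and with multi-transcript probe sets dropped 2 were lowest in replicate 4. Leaving out each other replicate, which with the 14 members fixed can only keep or raise these counts, gave 3 to 5, 5 to 7, 3 to 4 and 5 to 5 members highest in replicates 1 to 4, and 1 to 4, 4 to 6, 9 to 9 and 1 to 4 lowest. The cause of these differences was not tested. Of 168 comparisons of the 14 calls 145 kept the call, and of 216 list counts 189 stayed within 1.5 times. Without trend and robust fitting 13 members passed, Ccl5 being lost (adjusted p = 0.0602, limma). Cxcl16 and Cxcl1 also lost their calls at the median plus 3 median absolute deviations (adjusted p = 0.157 and 0.651). Quantile normalization moved the array medians by 0.171, 0.337, -0.392 and -0.117 log2 units. No paired analysis was possible because all 4 samples belong to 1 group. The number of arrays and the background threshold, not known depth, limit dim members. The alternatives for counts over the threshold, the mean over probe sets, leaving out replicates in the highest and lowest counts, and the plain fit were added after the data were examined.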
